A study of Mus musculus with 13 samples.

Results

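Genes of the mast cell, basophil and eosinophil lineages were followed in sorted mouse bone marrow progenitors, 10 of the 24062 gene rows measured. The members were taken by name: Cyp11a1, Gzmb, Mcpt8, Cpa3, Ms4a2, Hdc and Fcer1a, which are basophil and mast cell genes, and Prg2, Epx and Ear2, which are eosinophil granule genes. RNA was sequenced from LK marrow cells, sorted for c-kit and against Sca-1 and lineage markers, of irradiated mice that had been given marrow of 1 of 4 genotypes. WT donors carried both genes (TIFAB+/+;miR-146a+/+), TIFAB_KO donors lacked Tifab (TIFAB-/-;miR-146a+/+), miR-146a_KO donors lacked the microRNA gene (TIFAB+/+;miR-146a-/-) and dKO donors lacked both (TIFAB-/-;miR-146a-/-). There were 3 libraries of each of the first 3 genotypes and 4 of dKO, and the study asks how the loss of 1 gene changes the effect of losing the other. All recipients were Boy/J mice given 7.0 Gy and then 4.75 Gy 3 h later, and the labels give an age of 2 to 5 months. How the null alleles were made, and whether host cells were gated out of the sort, was not stated in the labels. The protocol states 3 mice per group and does not tie each library to a mouse, so the errors below measure the spread between libraries.

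Mast cells and basophils carry the high-affinity receptor for IgE and store histamine and proteases in granules, and both grow from c-kit-positive myeloid progenitors that depend on GATA2. Eosinophils grow from a related progenitor and fill their granules with a basic protein, a peroxidase and ribonucleases whose genes are transcribed at the promyelocyte stage, before the mature cell leaves the marrow. In bulk RNA, fewer cells of a type and less RNA per cell cannot be told apart, so each value below is a share of the library's reads and not a number of cells.

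The 4 promoter windows below are shown because their genes span the behaviours seen here, from the even levels of Cpa3 and Ms4a2 to the uneven ones of Fcer1a and Ear2. Each holds the 250 bases before the RefSeq start on GRCm38.p6 (the mm10 build), read 5′ to 3′ on the gene's strand. Capitals mark letters bound by GATA factors (AGATAA, with TGATAA searched too) or by C/EBP factors (TTGCNNAA), on both strands.
Ms4a2: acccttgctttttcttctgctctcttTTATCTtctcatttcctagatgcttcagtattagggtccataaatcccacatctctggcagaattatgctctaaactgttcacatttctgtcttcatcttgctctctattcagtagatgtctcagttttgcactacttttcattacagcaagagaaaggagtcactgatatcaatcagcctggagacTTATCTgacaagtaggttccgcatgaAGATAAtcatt
Fcer1a: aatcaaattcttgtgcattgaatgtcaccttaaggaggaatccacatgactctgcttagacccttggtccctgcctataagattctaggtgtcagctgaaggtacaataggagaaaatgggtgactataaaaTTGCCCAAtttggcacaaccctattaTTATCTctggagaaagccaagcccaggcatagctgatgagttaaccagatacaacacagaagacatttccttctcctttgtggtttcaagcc
Cpa3: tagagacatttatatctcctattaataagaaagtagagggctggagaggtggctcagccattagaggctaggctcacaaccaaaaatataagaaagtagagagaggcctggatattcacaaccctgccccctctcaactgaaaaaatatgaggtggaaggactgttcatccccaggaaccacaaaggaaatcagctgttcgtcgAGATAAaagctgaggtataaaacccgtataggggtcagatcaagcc
Ear2: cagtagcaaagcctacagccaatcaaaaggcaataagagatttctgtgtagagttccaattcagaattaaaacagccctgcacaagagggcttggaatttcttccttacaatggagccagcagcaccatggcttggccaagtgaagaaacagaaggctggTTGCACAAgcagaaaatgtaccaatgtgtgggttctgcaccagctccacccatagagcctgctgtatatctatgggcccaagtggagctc
The windows lie at chr19:11623720-11623969, chr1:173227230-173227479 and chr3:20242182-20242431 on the minus strand and at chr14:44102404-44102653 on the plus strand. Ms4a2 held 3 GATA matches, whose first bases lay 224, 37 and 11 bases before the start, the first 2 as TTATCT, the reverse complement. Fcer1a held TTATCT at 92 bases and the C/EBP match TTGCCCAA at 118 bases, and Cpa3 held the forward letters at 46 bases. Ear2 held no GATA match and 1 C/EBP match, TTGCACAA, at 90 bases.

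Windows were found for 9 of the 10 members, with 10 windows in all since Cyp11a1 has 2. GATA letters stood in the windows of 3 members, against 16.6% of all 32851 windows of this length. C/EBP letters stood in those of 3 members (9.56% of all windows), and GAGGAAG, letters bound by PU.1, in 1 member, Cyp11a1 (10.6%). The even and the uneven genes were not divided by these letters, since Cpa3, Ms4a2 and Fcer1a all held GATA letters while Gzmb, Mcpt8, Hdc and Epx held none of the 3 motifs. A match is a description of the letters and shows no binding.

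The sort gate and the lineage genes were checked first. Kit, which encodes the receptor used for the sort, had 269.6 to 458.5 CPM (a gene's share of the library's reads, scaled to a common total) over the 13 libraries, and Ly6a, which encodes Sca-1, had 0.597 to 5.30 CPM. Itgam, also on the list of sort gate genes, had 40.4 to 90.0 CPM. Its TIFAB_KO libraries (74.7 to 90.0) all lay above its WT libraries (43.1 to 55.3), as for 5.21% of all genes. The Itgam difference was 0.68 ± 0.23 (log2 fold change ± SE, limma adjusted p = 0.699). Total reads were 7.83 to 12.8 M per library. Tifab itself had 39.6 to 49.4 CPM in WT and 64.4 to 70.8 CPM in miR-146a_KO, against 8.95 to 12.8 CPM in TIFAB_KO and 3.23 to 11.0 CPM in dKO. TIFAB_KO replicate 3 and dKO replicate 3 stood apart from the other libraries over all genes tested, with a median correlation of 0.947 and 0.951 with the others against a median library's 0.973. The share of reads on 45S pre-rRNA was 3.85 to 10.7% and was highest in TIFAB_KO replicate 3. Tpsab1 and Tpsb2, the tryptases of mature mast cells, had 0 and 3 reads over all 13 libraries, and the mast cell chymase Cma1 had 0.119 to 6.57 CPM. T and NK cells also make granzyme B. Of their genes, Cd3e had 0.112 to 0.923, Prf1 0 to 0.852 and Gzma 0 to 1.24 CPM, but these were not the ones of the highest level. Those were Nkg7 (170 to 315 CPM), Il2rb (2.60 to 9.55), Cd4 (0.115 to 5.08) and Lck (0.691 to 3.71).

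The 10 members covered a wide span of levels. Per kilobase of the longest transcript, the median over 13 libraries was 227 CPM for Prg2 and 113 for Cpa3, then 33.9 for Mcpt8, 29.3 for Fcer1a, 28.9 for Gzmb, 25.1 for Ms4a2 and 21.0 for Epx. Hdc had 10.2, Ear2 2.07 and Cyp11a1 1.26 CPM per kilobase. The middle of this order, from Mcpt8 to Epx, did not separate, since the ranges over libraries overlapped (14.5 to 79.3 for Mcpt8 and 4.88 to 40.2 for Epx). Prg2 ran from 45.0 to 720 and Cpa3 from 72.4 to 184, so the leading pair overlapped too. All 10 members passed the mean of 0 log2 CPM required for testing, although Ear2 had a mean of only -0.53 in WT and Cyp11a1 of 0.24.

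**Figure D1:**
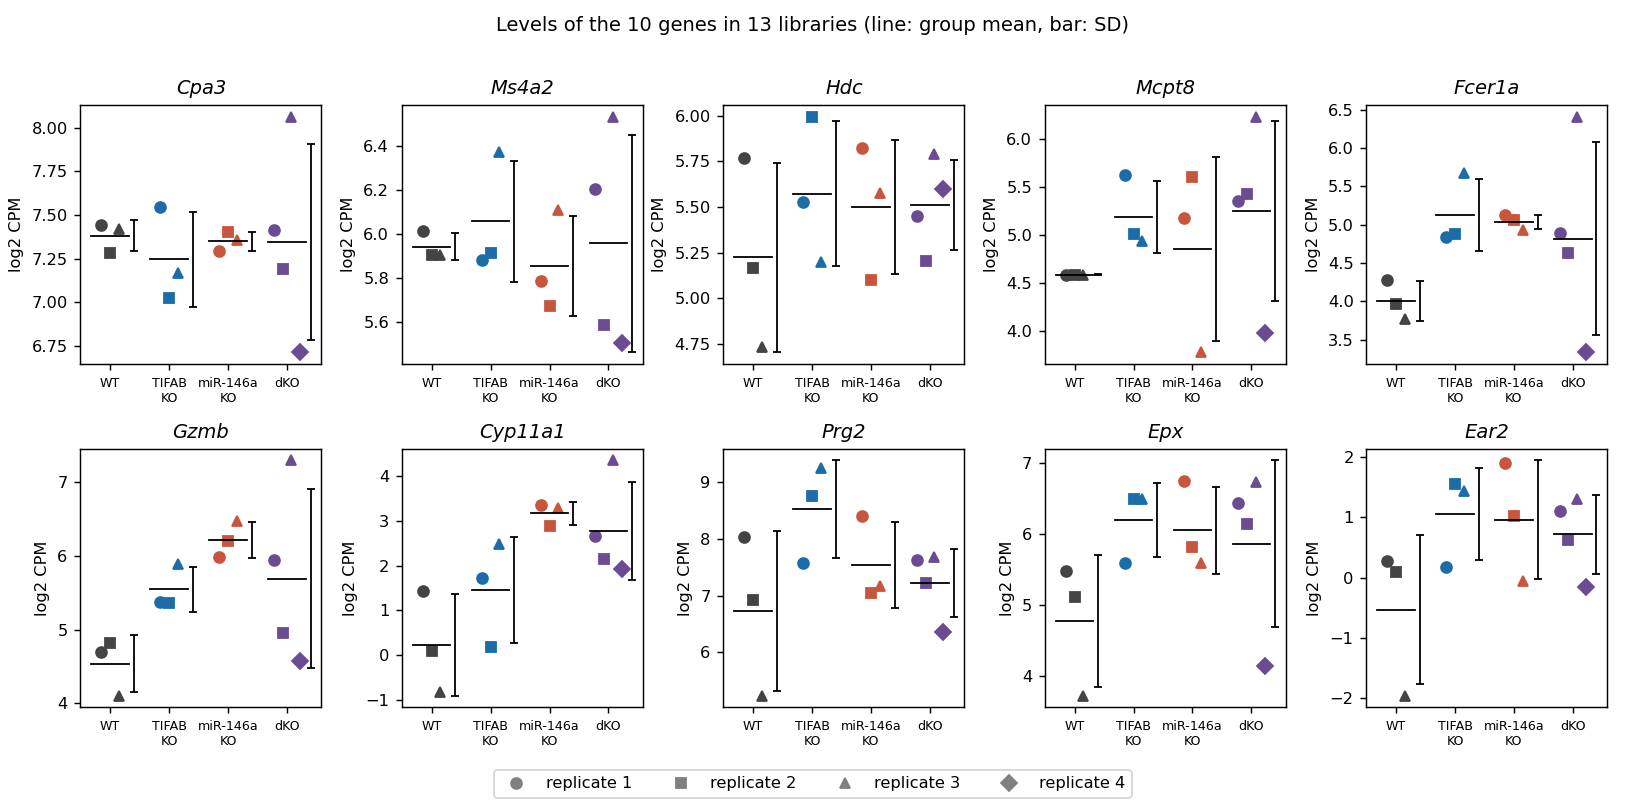
Level of each gene (log2 CPM) in every library, by group, with the group mean as a line and the SD as a bar. Cpa3 and Ms4a2 varied little outside dKO, WT replicate 3 was the lowest of all 13 libraries for 6 genes, and dKO replicate 3 was the highest for 6 genes.

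The members had been chosen by their log2 CPM values in earlier comparisons of the knockouts with WT. Differences from WT are therefore given as a description, as log2 fold change ± SE from limma, and no p-value of a single member is given. Counts of members called stand beside the share of all genes called, as a description. In the fit across all 11867 genes tested, limma called 0 of 10 members in TIFAB_KO against WT at an adjusted p under 0.05, where 0.0169% of all genes were called. It called 0 of 10 in miR-146a_KO against WT (0.0843% of all genes) and 0 of 10 in dKO against WT (0.0674%). With limma-voom weights on the recovered reads 0 of 10 were called in each as well. An unadjusted p under 0.05 was held by 5 members in TIFAB_KO (5.11% of all genes, 2.99% higher and 2.12% lower), by 5 in miR-146a_KO (9.53%, 7.23% higher and 2.3% lower) and by 3 in dKO (14.1%, 9.7% higher and 4.36% lower). All of these member values were above 0. Since the choice used these contrasts, nothing is read from the counts. The median of the 10 members was 1.07 for TIFAB_KO, 0.92 for miR-146a_KO and 0.74 for dKO on the log2 scale, where the median of all genes tested was -0.01, 0.09 and 0.08.

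**Figure D2:**
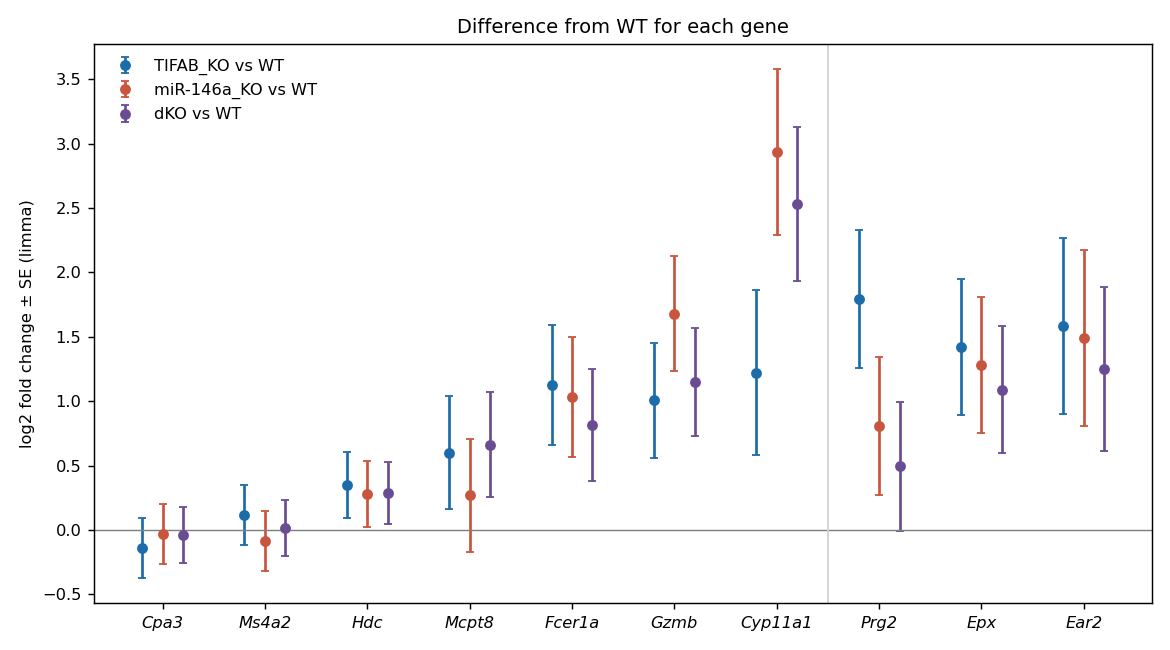
Log2 fold change against WT (limma, bars are SE) for each gene in TIFAB_KO, miR-146a_KO and dKO, with the 7 basophil and mast cell genes first and the 3 eosinophil genes last. Cpa3 and Ms4a2 lay within 0.14 of 0 in each group, and the 3 highest values were those of Cyp11a1 in miR-146a_KO (2.93) and dKO (2.53) and of Prg2 in TIFAB_KO (1.79).

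Of the IgE receptor genes, Fcer1a was uneven and Ms4a2 was more even. Values per library are given from replicate 1 upward. Fcer1a (chr1:173221284-173227214), which encodes the IgE-binding alpha chain, had 19.3, 15.6 and 13.5 CPM in the WT libraries, 28.6, 29.3 and 50.9 in those of TIFAB_KO, 34.7, 33.2 and 30.4 in those of miR-146a_KO, and 29.7, 24.8, 84.7 and 10.1 in those of dKO. All TIFAB_KO and miR-146a_KO libraries were above all WT libraries, while dKO held both the highest and the lowest of the 13 values. The difference from WT was 1.13 ± 0.46 for TIFAB_KO, 1.03 ± 0.46 for miR-146a_KO and 0.82 ± 0.43 for dKO (log2 fold change ± SE, n = 3, 3 and 4 against 3). Ms4a2 (chr19:11615523-11623719) encodes the beta chain that amplifies the signal of the same receptor. It had 64.5, 59.9 and 59.9 CPM in the WT libraries, 59.0, 60.3 and 83.0 in those of TIFAB_KO, 55.2, 50.8 and 69.0 in those of miR-146a_KO, and 73.8, 47.9, 92.5 and 45.3 in those of dKO. Its groups overlapped in every comparison, and its differences from WT were 0.12 ± 0.23, -0.09 ± 0.23 and 0.02 ± 0.22. Fcer1g, which encodes the gamma chain shared with other Fc receptors and is no member, had 111 to 160 CPM over the 13 libraries.

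Of the granule protease genes, Cpa3 was even and Gzmb and Mcpt8 were not. Cpa3 (chr3:20215620-20242181) encodes mast cell carboxypeptidase A, which is made early in the basophil and mast cell lineage. It had 174, 155 and 171 CPM in the WT libraries, 187, 130 and 144 in those of TIFAB_KO, 157, 169 and 164 in those of miR-146a_KO, and 171, 146, 267 and 105 in those of dKO. The groups overlapped, with differences from WT of -0.14 ± 0.23, -0.03 ± 0.23 and -0.04 ± 0.22, and the widest spread lay in dKO. Gzmb (chr14:56258838-56262260) encodes granzyme B, a serine protease of cytotoxic lymphocytes that mast cells and basophil progenitors can also make. It had 25.8, 28.2 and 17.1 CPM in the WT libraries, 41.5, 41.0 and 59.4 in those of TIFAB_KO, 63.1, 73.5 and 88.8 in those of miR-146a_KO, and 61.3, 31.0, 157 and 23.7 in those of dKO. All TIFAB_KO libraries lay above all WT libraries and all miR-146a_KO libraries above both, while dKO replicates 2 and 4 lay below every TIFAB_KO library. The Gzmb differences from WT were 1.01 ± 0.45, 1.68 ± 0.45 and 1.15 ± 0.42.

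Mcpt8 (chr14:56082166-56085273) encodes mast cell protease 8, a marker protease of mouse basophils. It had 24.0, 23.9 and 24.0 CPM in the WT libraries, 49.2, 32.1 and 30.6 in those of TIFAB_KO, 36.2, 48.7 and 13.7 in those of miR-146a_KO, and 40.9, 43.1, 74.9 and 15.8 in those of dKO. The WT libraries lay within 0.1 CPM of each other, the TIFAB_KO libraries were all above them, and miR-146a_KO replicate 3 and dKO replicate 4 were below them. Differences from WT were 0.60 ± 0.44, 0.27 ± 0.44 and 0.66 ± 0.41, and the value in miR-146a_KO was 0.81 without its replicate 3.

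Cyp11a1 had the widest range of the 10 genes, and Hdc a narrow one. Cyp11a1 (chr9:58006411-58027023) encodes the mitochondrial enzyme that cleaves the side chain of cholesterol, the first step of steroid synthesis. It had 2.67, 1.02 and 0.513 CPM in the WT libraries (32, 10 and 5 reads), 3.22, 1.08 and 5.55 in those of TIFAB_KO (27, 12 and 71 reads), 10.1, 7.30 and 9.71 in those of miR-146a_KO (90, 77 and 76 reads), and 6.31, 4.33, 20.3 and 3.75 in those of dKO (60, 35, 176 and 44 reads). Every miR-146a_KO and every dKO library was above every WT library, and TIFAB_KO overlapped WT. The differences from WT were 2.93 ± 0.64 in miR-146a_KO, 2.53 ± 0.60 in dKO and 1.22 ± 0.64 in TIFAB_KO, a 7.64-fold, 5.78-fold and 2.33-fold higher level. An annotated locus, Gm17322, overlaps exons of Cyp11a1 on the same strand, so some reads of this gene could belong to either. Hdc (chr2:126593667-126619299) encodes histidine decarboxylase, which makes histamine. It had 54.4, 35.9 and 26.6 CPM in the WT libraries, 46.1, 63.6 and 36.7 in those of TIFAB_KO, 56.5, 34.2 and 47.7 in those of miR-146a_KO, and 43.6, 36.8, 55.2 and 48.5 in those of dKO. Its groups overlapped throughout, with differences from WT of 0.35 ± 0.26, 0.28 ± 0.26 and 0.29 ± 0.24.

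The partners of Cyp11a1 in steroid synthesis were read from a list. Of 12 such genes fixed as a list, 5 were tested, and limma and limma-voom each called 0 in all 6 comparisons. Before adjustment, limma gave 2 of them a p under 0.05 in dKO against TIFAB_KO and 0 in the other 5 comparisons. Star was higher there (0.69 ± 0.23) and Stard3 lower (-0.56 ± 0.24). Such a p was common in that comparison, with 12.6% of all genes higher and 5.93% lower (18.5% in all). In miR-146a_KO the list's median was -0.04. Fdxr, which passes electrons to the enzyme's ferredoxin, had 0.21 ± 0.26 there (limma adjusted p = 0.804), and the cholesterol carrier Star had 0.34 ± 0.25 (0.649). Nr5a1, the factor that drives steroid genes in endocrine tissue, had 0 reads in every library, and Cyp17a1 had 0 to 0.271 CPM outside dKO and 0.170 to 4.38 CPM in dKO.

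The 3 eosinophil granule genes followed one another and varied widely within groups. Prg2 (chr2:84980461-84983632) encodes the major basic protein of the granule. It had 261, 121 and 37.8 CPM in the WT libraries, 191, 430 and 603 in those of TIFAB_KO, 339, 131 and 143 in those of miR-146a_KO, and 196, 149, 204 and 82.6 in those of dKO. The WT libraries alone spanned 6.90-fold, the highest WT library was above the lowest TIFAB_KO library, and every group overlapped WT. Differences from WT were 1.79 ± 0.54 for TIFAB_KO, 0.81 ± 0.54 for miR-146a_KO and 0.49 ± 0.50 for dKO. Epx (chr11:87864000-87875536) encodes eosinophil peroxidase. It had 44.7, 34.7 and 13.1 CPM in the WT libraries, 48.3, 90.2 and 90.4 in those of TIFAB_KO, 108, 56.4 and 48.2 in those of miR-146a_KO, and 86.7, 70.5, 107 and 17.6 in those of dKO. All TIFAB_KO and all miR-146a_KO libraries were above WT, by a small gap at the lowest of each, and dKO overlapped WT through replicate 4. The Epx differences were 1.42 ± 0.53, 1.28 ± 0.53 and 1.09 ± 0.49.

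Ear2 (chr14:44102654-44103534) encodes an eosinophil-associated ribonuclease and was near the limit of detection. It had 14, 10 and 2 reads in the WT libraries, 9, 32 and 34 in those of TIFAB_KO, 33, 21 and 7 in those of miR-146a_KO, and 20, 12, 21 and 10 in those of dKO. The groups overlapped in each comparison, and the differences from WT were 1.59 ± 0.68, 1.49 ± 0.68 and 1.25 ± 0.64. Of the 50-base windows of its transcript 41.5% also occur in Ear1, Ear6, Ear10 or an Ear pseudogene, so reads could be split among these near-identical copies and the level of Ear2 is uncertain. Such shared windows made up 2.69% of the Ms4a2 transcript, at most 0.201% of those of Cyp11a1 and Hdc, and 0 of those of the other 6 members.

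Genes of other myeloid cells were read beside these differences. The 13 genes of the neutrophil and granulocyte-monocyte progenitor list summed to 7615 to 13292 CPM in WT, 15547 to 17523 in TIFAB_KO, 10319 to 13352 in miR-146a_KO and 8494 to 13329 in dKO. Most of this sum was Mpo alone, with 6715 to 11289 CPM in WT and 12563 to 14550 in TIFAB_KO. In TIFAB_KO all 12 tested members of that list were above 0, with a median of 1.10, as were 11 of 12 in miR-146a_KO (median 0.34) and 11 of 12 in dKO (median 0.91). Monocyte, macrophage and dendritic cell genes summed to 235 to 382 CPM in the WT libraries, 407 to 535 in those of TIFAB_KO, 373 to 495 in those of miR-146a_KO and 331 to 665 in those of dKO. All 8 tested genes of that list were above 0 in each knockout against WT, with medians of 0.83, 0.65 and 0.68. The part of these cells in the values of the 10 genes was not tested. In the T and NK cell list 16 of 17 genes had a row, none of them at 0 in all libraries, and they summed to 184 to 251 CPM in WT, 249 to 331 in TIFAB_KO, 195 to 233 in miR-146a_KO and 203 to 306 in dKO. Of this Nkg7 alone made up 170 to 315 CPM, while Cd3e, Prf1 and Gzma were near 0 in every library. Il2rb had 0.67 ± 0.37, 0.83 ± 0.37 and 0.01 ± 0.35 in TIFAB_KO, miR-146a_KO and dKO against WT. Its TIFAB_KO and miR-146a_KO libraries all lay above its WT libraries, as for 5.21% and 15.5% of all genes. Which cells gave the Gzmb reads was not tested. Limma and limma-voom called 0 genes of these 3 lists in each comparison, and likewise 0 of 3 tested B lineage, 6 erythroid, 8 megakaryocyte and 6 sort gate genes. At an unadjusted p under 0.05, 6 of 12 neutrophil and 4 of 8 monocyte genes had higher values in TIFAB_KO than in WT, where 2.99% of all genes did. In miR-146a_KO 5 of 8 megakaryocyte genes had lower values, where 2.3% of all genes did. The T and NK cell list held at most 1 such gene in a comparison, and the B lineage, erythroid and sort gate lists at most 2. These lists are short. In miR-146a_KO against WT, 2 of 3 B lineage genes had higher values, where 7.23% of all genes did. They were Ebf1 (1.98 ± 0.71) and Igll1 (2.09 ± 0.64). Of the 6 erythroid genes, Car1 and Car2 had lower values in TIFAB_KO and in miR-146a_KO, where 2.12% and 2.3% of all genes did.

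WT replicate 3 weighed on the differences of several members. It was the lowest of all 13 libraries for Cyp11a1, Gzmb, Hdc, Prg2, Epx and Ear2, and its summed level of Prg2, Epx and Ear2 was 51.1 CPM against 307 and 156 in WT replicates 1 and 2. Without it the median of the 3 eosinophil genes went from 1.59 to 0.90 in TIFAB_KO, from 1.28 to 0.75 in miR-146a_KO and from 1.09 to 0.54 in dKO. The value of Prg2 then was 1.05 for TIFAB_KO, 0.06 for miR-146a_KO and -0.25 for dKO. Those of Ear2 were 0.87, 0.77 and 0.54 and those of Epx 0.90, 0.75 and 0.56. Cyp11a1 moved about as much as Epx, to 0.69, 2.40 and 2.00, and Hdc went to 0.11, 0.03 and 0.04. Fcer1a then had 1.01, 0.91 and 0.70 and Gzmb 0.79, 1.46 and 0.93. Each of these values without WT replicate 3 is a log2 fold change against the other 2 WT libraries.

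The dKO libraries were widely spread for some of the genes. Their SD was the largest of the 4 groups for 5 members (Cpa3, Epx, Fcer1a, Gzmb and Ms4a2), while WT had the largest for 3 (Ear2, Hdc and Prg2), TIFAB_KO for Cyp11a1 and miR-146a_KO for Mcpt8. The 7 basophil and mast cell genes summed to 426, 334, 752 and 252 CPM in dKO replicates 1 to 4, against 313 to 365 in WT, 357 to 415 in TIFAB_KO and 413 to 423 in miR-146a_KO. Replicate 3 was above its gene's 13-library mean for all 10 members and replicate 4 for 1 of them. Fcer1a spanned 8.42-fold among the dKO libraries and 1.14-fold among the miR-146a_KO libraries, and Gzmb 6.62-fold and 1.41-fold. Without dKO replicate 3, the library that stood apart over all genes, the dKO median against WT was 0.34, and without dKO replicate 4 it was 1.20. Without replicate 4 limma called 4 of 10 members (Cyp11a1, Gzmb, Fcer1a and Epx), where 2.83% of all genes were called in that fit, and without replicate 3 it called 0. The members were chosen on this contrast, so these calls support nothing about them. Cyp11a1 was above every WT library in all 4 dKO libraries, and it had 2.01 ± 0.56 without replicate 3 and 2.81 ± 0.62 without replicate 4.

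**Figure D3:**
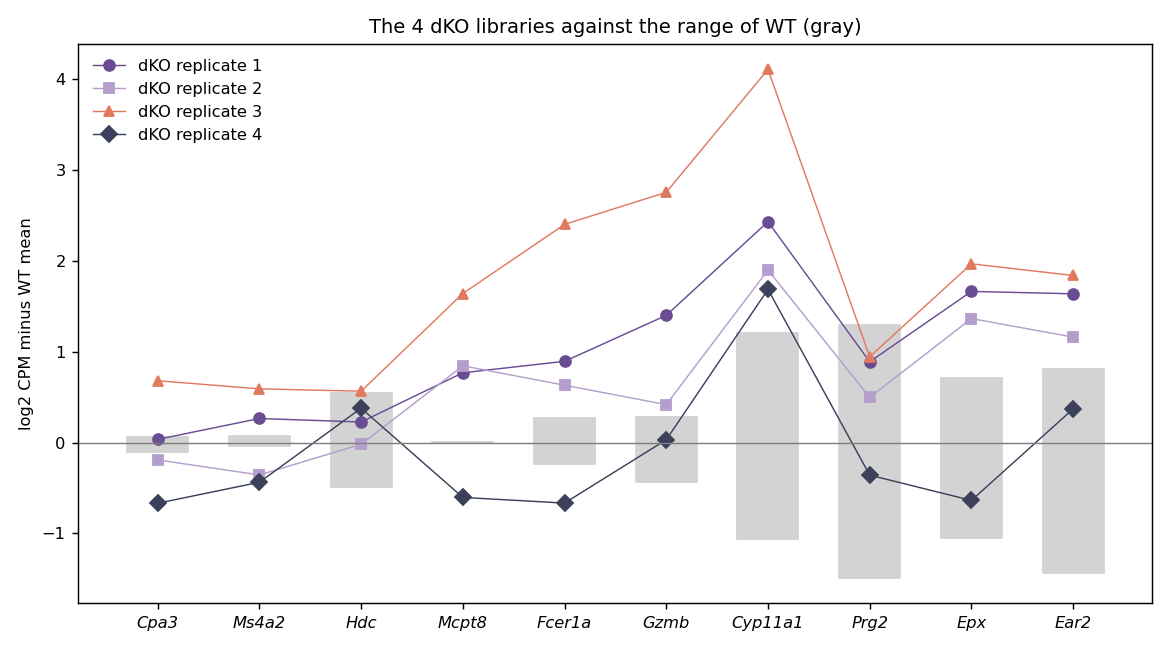
Level of each gene in the 4 dKO libraries relative to the WT mean (log2 CPM difference), with the range of the 3 WT libraries in gray. Replicate 3 was above the WT range for 9 genes and replicate 4 was below it for 4, Cpa3, Ms4a2, Mcpt8 and Fcer1a.

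Separation of whole groups of libraries was counted as a description. All TIFAB_KO libraries were above all WT libraries for 4 members (Gzmb, Mcpt8, Fcer1a and Epx), as for 5.21% of all genes tested. In miR-146a_KO this held for 4 members (Cyp11a1, Gzmb, Fcer1a and Epx), as for 15.5% of all genes, and in dKO for 1 (Cyp11a1), as for 8.9%. No member was below WT in this way, where 3.31%, 6.4% and 3.62% of all genes were. These comparisons share the 3 WT libraries, so they are not separate evidence of one another.

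The double knockout was then set beside each single knockout, in comparisons that use libraries of the ones above. Limma called 0 of 10 members in dKO against TIFAB_KO (0.0337% of all genes) and 0 of 10 in dKO against miR-146a_KO (0.0506%), and limma-voom also called 0 in both. An unadjusted p under 0.05 was held by Cyp11a1 and Prg2 against TIFAB_KO (18.5% of all genes, 12.6% higher and 5.93% lower) and by 0 members against miR-146a_KO (1.93%, 0.868% higher and 1.06% lower). Cyp11a1 was higher in dKO than in TIFAB_KO by 1.31 ± 0.60, with overlapping libraries, and Prg2 had -1.30 ± 0.50, with dKO replicates 1 and 3 above TIFAB_KO replicate 1. The median of the 10 members was -0.08 against TIFAB_KO and -0.20 against miR-146a_KO, where all genes had 0.09 and -0.01. No member separated in either comparison, in either direction, where 6.82% and 1.61% of all genes were higher and 3.84% and 2.12% lower without overlap.

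The dKO value can also be compared with the sum of both single effects, by taking both single knockouts from dKO and adding WT back. This interaction was below 0 for 9 of 10 members, from -2.11 ± 0.74 for Prg2 to 0.13 ± 0.32 for Cpa3, with a median of -1.44 (-0.34 for the basophil and mast cell genes and -1.82 for the eosinophil genes). All genes tested had a median of 0.01. Limma and limma-voom each called 0 of 10 members, where 0% of all genes were called, and an unadjusted p under 0.05 was held by 4 (Gzmb, Fcer1a, Prg2 and Epx), all with a value below 0, and by 4.23% of all genes (1.68% above 0 and 2.55% below). The choice of members with values above WT in the single knockouts pushes this sum below 0, and WT replicate 3 enters it as well, so nothing is read from its sign. It was -1.09 without WT replicate 3, -1.89 without dKO replicate 3 and -0.94 without dKO replicate 4.

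Across the 13 libraries the members varied together to different degrees. Correlations here are Pearson's r of log2 CPM over libraries that share groups and depth, and are given without a p. Prg2, Epx and Ear2 had r of 0.84 to 0.92 with each other, and 0.86 to 0.91 about the group means. Gzmb and Fcer1a had 0.89 and Gzmb and Cyp11a1 0.84, while Cyp11a1 and Fcer1a had 0.70. Cpa3 had 0.63 with Ms4a2 and only 0.01 with Prg2, 0.06 with Ear2 and 0.02 with Hdc. Hdc was most like Prg2 (0.59) and least like Cpa3, and had 0.51 to 0.59 with the 3 eosinophil genes, against 0.02 to 0.37 with the other basophil and mast cell genes. Fcer1a was like both sets, with 0.84 to Epx and 0.62 to Cpa3. The basophil and mast cell genes had a median r of 0.48 with each other and 0.51 with the eosinophil genes. Over the 13 libraries they were thus no more alike among themselves than across the sets. About the group means these medians were 0.67 and 0.48, so there they were more alike among themselves. There Gzmb had 0.91 with both Fcer1a and Ms4a2, 0.82 with Cpa3 and 0.75 with Cyp11a1.

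**Figure D4:**
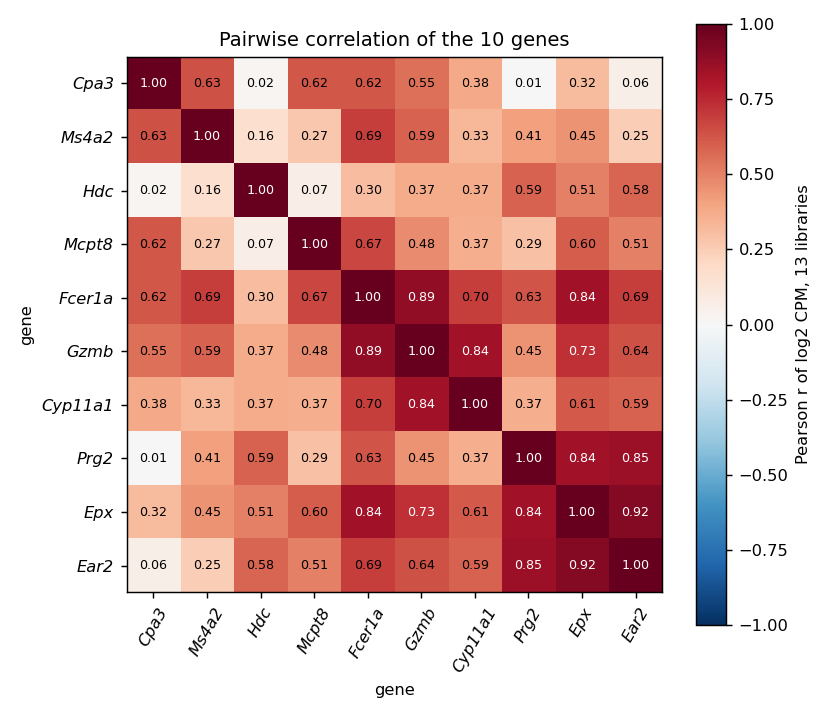
Pearson r of log2 CPM over 13 libraries for each pair of genes, from -1 (blue) to 1 (red). Prg2, Epx and Ear2 formed one block (0.84 to 0.92), and Cpa3 with Prg2 was the lowest pair (0.01). Fcer1a, Gzmb and Cyp11a1 had 0.70 to 0.89 with each other, and Fcer1a had 0.84 with Epx.

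The ratio of the eosinophil genes to the basophil and mast cell genes differed within groups. Summed CPM of Prg2, Epx and Ear2 over that of the other 7 genes was 0.840, 0.489 and 0.163 in the WT libraries, 0.579, 1.46 and 1.70 in those of TIFAB_KO, 1.09, 0.455 and 0.455 in those of miR-146a_KO, and 0.668, 0.663, 0.417 and 0.401 in those of dKO. TIFAB_KO replicates 2 and 3 held the highest ratios and WT replicate 3 the lowest, and the groups overlapped. The basophil and mast cell sum alone spanned 2.98-fold and the eosinophil sum 13.6-fold over the 13 libraries.

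**Figure D5:**
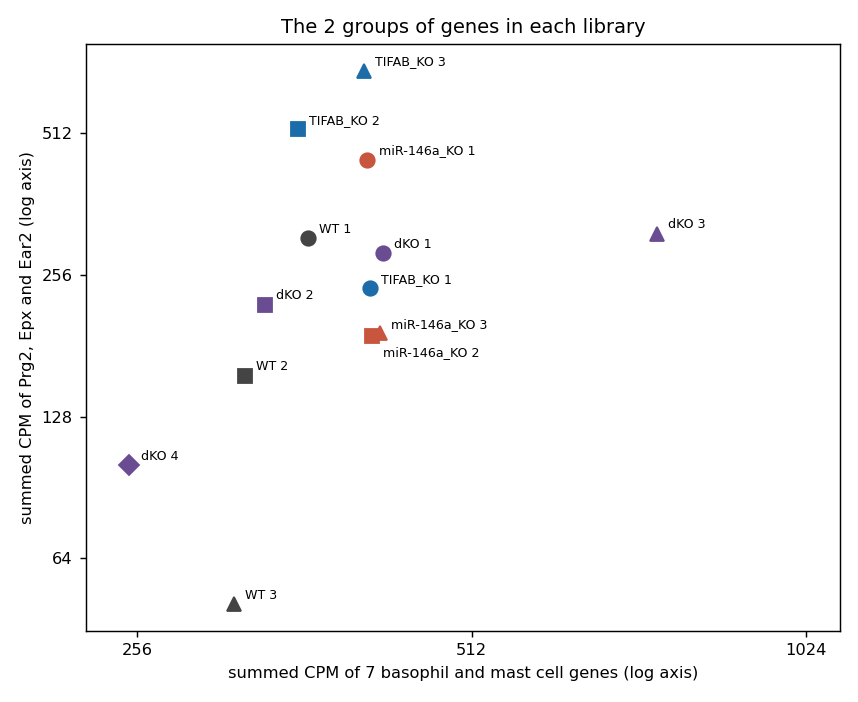
Summed CPM of the 7 basophil and mast cell genes (horizontal, log axis) and of Prg2, Epx and Ear2 (vertical, log axis) in each library, coloured by group. WT replicate 3 is lowest on the vertical axis (51.1), dKO replicate 3 is farthest right (752) and TIFAB_KO replicate 3 is highest (696).

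The members were more variable between libraries of a group than most genes. The within-group SD of Cyp11a1 (1.01 on the log2 scale), Prg2 (0.92), Ear2 (0.91), Epx (0.89), Fcer1a (0.77), Gzmb (0.75) and Mcpt8 (0.72) lay between percentiles 92.7 and 97.9 of all genes tested. Those of Hdc (0.38), Cpa3 (0.35) and Ms4a2 (0.33) lay between percentiles 60.9 and 69.3. At the level of Prg2 the typical SD of a gene was 0.20, and at that of Ear2 0.76.

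Other genes of both lineages were read from lists that do not hold the members. Of 13 further eosinophil genes 12 had a row and 5 were tested, and limma called 0 in each of the 6 comparisons, as did limma-voom. Ear1 or Ear6 had an unadjusted p under 0.05 in 4 of the comparisons. These were TIFAB_KO, miR-146a_KO and dKO against WT and the interaction, where 5.11, 9.53, 14.1 and 4.23% of all genes had such a p. The median of the 5 tested genes was 1.21 for TIFAB_KO, 0.91 for miR-146a_KO and 0.64 for dKO against WT, where all genes had -0.01, 0.09 and 0.08. WT replicate 3 weighed on these values too, as the lowest WT library for Ear1, Ear6, Prg3 and Il5ra. It had 1.23 CPM of Prg3 against 3.59 and 2.44 in WT replicates 1 and 2, and 0.718 of Il5ra against 3.75 and 2.65. Ear1, a ribonuclease gene that shares sequence with Ear2, had 8.50, 6.72 and 3.39 CPM in the WT libraries, 10.3, 23.0 and 17.2 in those of TIFAB_KO, 37.0, 10.2 and 11.4 in those of miR-146a_KO, and 29.5, 12.9, 14.2 and 2.39 in those of dKO. Both single knockouts lay above WT in every library, with 1.46 ± 0.65 (limma adjusted p = 0.95) and 1.48 ± 0.65 (0.515). Prg3, the neighbour and homologue of Prg2, had 1.21 ± 0.71 (0.999) in TIFAB_KO and 0.86 ± 0.71 (0.691) in miR-146a_KO, and Il5ra, the receptor chain for the eosinophil growth factor, 0.98 ± 0.69 (0.999) and 0.91 ± 0.69 (0.662). Ear6 had 1.51 ± 0.93 and 1.82 ± 0.93, and both Ear genes are uncertain for the same reason as Ear2. The row named Siglec5 had 0.00 ± 0.24 and -0.25 ± 0.24, and that symbol is an older name of 2 genes. The chemokine receptor Ccr3, found on mature eosinophils, had 0 to 5.28 CPM and was not tested.

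Further mast cell and basophil genes were read the same way. Of 32 genes 18 were tested and limma called 0 in each of the 6 comparisons, as did limma-voom. An unadjusted p under 0.05 was held by 1 to 6 of them. Against WT these were 2 higher and 1 lower in TIFAB_KO (5.11% of all genes), 2 higher in miR-146a_KO (9.53%) and 2 higher and 1 lower in dKO (14.1%). In dKO against miR-146a_KO 1 was lower (1.93%), and in the interaction 1 was above 0 and 2 below (4.23%). The 6 were in dKO against TIFAB_KO (2 higher and 4 lower), where 18.5% of all genes had such a p. The median of the 18 genes was 0.14 for TIFAB_KO, -0.04 for miR-146a_KO and 0.00 for dKO against WT. The proteoglycan gene Srgn had 0.21 ± 0.185 in TIFAB_KO (limma adjusted p = 0.999) and -0.03 ± 0.185 in miR-146a_KO (0.964), and Slc18a2, which loads amines into granules, had 0.09 ± 0.22 (0.999) and 0.53 ± 0.22 (0.496). Cd69 had -0.60 ± 0.18 (0.669) and -0.10 ± 0.18 (0.869). Every TIFAB_KO library was below every WT library for Cd69, as for 3.31% of all genes. Alox5ap had 0.31 ± 0.14 (0.963) and -0.04 ± 0.14 (0.934), Ccl3 -0.05 ± 0.25 and -0.09 ± 0.25, and Fcer1g 0.05 ± 0.15 and -0.28 ± 0.15. Prss34, a basophil protease gene chosen after its values were seen, had 14.6, 12.2 and 2.97 CPM in the WT libraries, 15.5, 13.9 and 16.9 in those of TIFAB_KO, 6.18, 7.97 and 2.94 in those of miR-146a_KO, and 6.41, 5.57, 11.9 and 4.77 in those of dKO. In that gene the miR-146a_KO libraries were all below the TIFAB_KO libraries, unlike Gzmb, where they were all above.

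Receptors and transcription factors of the lineages are upstream of these genes in development. Limma called 0 of 12 tested receptor genes and 0 of 17 factors in each comparison, as did limma-voom. At most 4 receptors and 6 factors had an unadjusted p under 0.05. The 6 factors were those of dKO against TIFAB_KO, 2 with higher values (Gata2 and Runx1) and 4 with lower ones (Cebpa, Spi1, Irf8 and Gfi1). There 18.5% of all genes had such a p, 12.6% higher and 5.93% lower. The 4 receptors were those of dKO against WT, all with higher values (Csf2ra, Csf2rb2, Il1rl1 and Il4ra), where 9.7% of all genes had such a p and a higher value. Among them were Csf2ra, the GM-CSF receptor chain, with 0.89 ± 0.34 (limma adjusted p = 0.278), and Il1rl1, the IL-33 receptor, with 0.58 ± 0.23 (0.283). Kit had -0.10 ± 0.17, 0.08 ± 0.17 and 0.12 ± 0.16 in TIFAB_KO, miR-146a_KO and dKO. Gata2, the factor that both mast cells and basophils need, had -0.41 ± 0.19 in TIFAB_KO (adjusted p = 0.96), -0.07 ± 0.19 in miR-146a_KO (0.918) and -0.04 ± 0.18 in dKO (0.939).

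The genes most like the members over the 13 libraries were sought among 10315 named genes. The mean standardized level of the 10 members was most like C3 (r 0.95), Lcn2 (0.92), Gda (0.91), Lbp (0.91), Alas1 (0.91) and Arsb (0.90), where C3 encodes a complement protein and Lcn2 a neutrophil granule protein. Profiles of the 2 sets were added after the data were seen. For the basophil and mast cell members the closest were Csf2rb2 (0.95), Serpina3g (0.93) and C3 (0.93), and for the eosinophil members Prom1 and Slc38a6 (0.89 each), with Ear1 and Prg3 among the first 10 (0.88 and 0.87). Csf2rb2, the mouse-specific beta chain of the IL-3 receptor, had 16.1, 16.0 and 9.75 CPM in the WT libraries, 23.3, 19.0 and 18.5 in those of TIFAB_KO, 22.6, 22.6 and 27.3 in those of miR-146a_KO, and 21.6, 18.9, 72.4 and 12.1 in those of dKO. Its highest library was dKO replicate 3, as for Gzmb and Fcer1a, and its difference from WT in dKO was 0.85 ± 0.39 (limma adjusted p = 0.344).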

How the data were processed

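RNA of LK cells (13 libraries) was amplified (Ovation RNA-Seq System v2) and sequenced as Nextera XT libraries, per the labels' protocols. Per the submitters' processing notes, TopHat, featureCounts, limma and the mm10 build were used, and no versions are stated. The deposited values are log2 CPM, and every value gave a whole read within 0.01 read when 0.5 read per gene and 1 per library total were taken off, so this form was used to recover the reads. CPM and reads in the text are these recovered reads, without the added 0.5.

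The fit was limma 3.58.1 (R 4.3.3) on the deposited log2 CPM of 13 libraries, with 1 mean per group, a variance trend, a required average of 0 log2 CPM or more (11867 genes) and Benjamini-Hochberg adjustment over all of them. It was tested on simulated data. Positions and lengths came from GENCODE M21. The 10 members, the 12 other gene lists and the tests were chosen with earlier results of these data known. From other lists, genes called in any comparison were to be named, then those of the highest mean level. Depth was 7.83 to 12.8 M reads, and reads carry no molecular identifiers, so counting error is only part of the spread. The alternatives tried were all rows kept, an average of 3 log2 CPM or more, 2 reads added, median centring, quantile normalization, other variance models, limma-voom, only the groups compared, a replicate block and libraries left out.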

Additional observations from a re-analysis of the deposited data

Results flagged for a closer look

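Prg2 had opposite values for the loss of miR-146a with and without Tifab. Every miR-146a_KO library was above the WT mean and every dKO library was below the TIFAB_KO mean, with a difference of 0.81 in the first case and -1.30 in the second, so that the second effect minus the first was -2.11 on the log2 scale. Limma, which tests this difference as the interaction, did not call it among all genes. Prg2 was chosen with its high value in TIFAB_KO known, and the value was -1.75 without TIFAB_KO replicate 3. Without WT replicate 3 it was -1.36, and the effect of miR-146a loss with Tifab present went from 0.81 to 0.06. Opposite values were not particular to Prg2, since Prtn3 had 0.40 and -1.09, Ctsg 0.22 and -0.95 and Elane 0.25 and -0.71. Of 12 tested neutrophil list genes, 5 were lower in dKO than in TIFAB_KO at an unadjusted limma p under 0.05 (5.93% of all genes), and 5 were above 0. The interaction was below 0 at such a p for 5 of the 12 (2.55% of all genes). Among the 4 dKO libraries, no member had a library that Dixon's test set apart, and the nearest was Epx in dKO replicate 4, with a gap of 0.769 of the range.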

How the results depend on the processing

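The number of members called stayed at 0 in TIFAB_KO against WT, in dKO against each single knockout and in the interaction under every alternative run. In miR-146a_KO against WT, limma called 2 members with library quality weights (Cyp11a1 and Gzmb, with 1.79% of all genes called), 3 with only the groups compared (those and Fcer1a, 0.75%), 2 without TIFAB_KO replicate 3 and dKO replicate 3 together (0.126%), and 0 to 1 when each library was left out, the single call being Gzmb without dKO replicate 3 (0.0842%). In dKO against WT it called 2 with library quality weights (Cyp11a1 and Gzmb, 6.67% of all genes) and 0 to 4 when each library was left out. The members were chosen on contrasts with WT, so these calls are descriptions. The replicate block called 4 there (2.37% of all genes), the same 4 as without dKO replicate 4, since only dKO has a library of that number and the block takes it out of the fit. Same-numbered libraries of different groups did not deviate together (correlations of -0.20 to 0.23 in 18 pairs), so no pairing by number was seen. Such correlations cannot exclude a pairing or a shared batch. The labels also carry sample tags shared between groups, which were not checked as a pairing. The median log2 fold change of the members ranged, with each library left out, from 0.74 to 1.18 in TIFAB_KO, 0.51 to 1.31 in miR-146a_KO and 0.34 to 1.20 in dKO against WT. For the interaction it was -1.89 to -0.94, against -0.94 with the replicate block and -0.84 when an average of 3 log2 CPM or more was required, which removes Cyp11a1 and Ear2. Of 1478 values of single members under 25 alternatives 0 moved by as much as that gene's own within-group SD (0.33 to 1.01), 78 changed sign and 0 of those had been over 0.5 in size. Many of these alternatives cannot move a fold change, such as another variance model or a library left out of a group not compared. Leaving out 1 library moves a group mean by only part of that library's deviation. The count of 0 is therefore no evidence that the values are stable. The causes of these changes were not tested beyond the libraries and genes each alternative removes. Ear2 and Cyp11a1 rest on as few as 2 and 5 reads in a library.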
